A study of Mus musculus with 24 samples.

Results

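Mouse acute myeloid leukaemia cells that carry surface Kit but little Mac-1 and no Sca-1 were compared with cells of the same leukaemia that carry much Mac-1. The comparison holds 10 of the 24 RNA-seq libraries: the 5 labelled MacLowKit+Sca1-, called Kit+Sca1- here, and the 5 labelled MacHigh. They were chosen by the sort gate named in the table's column headings. All 24 libraries were of NRASG12V/Mll-AF9 leukaemia cells, with the background given as (FVB/n X C57/BL/6J) F1, so both groups carry the activated Ras transgene and the MLL fusion, and no library is of normal cells. The cells were primary leukaemia from spleen, with no treatment, and the labels give no age or promoter. The other libraries were 4 of Kit+Sca1+ cells, 5 of Kit-Sca1- cells (both also low in Mac-1) and 5 unsorted. Whether replicates are from different mice is not stated, so the p-values rest on the scatter among these samples and may reflect technical scatter alone.

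Kit is the receptor for stem cell factor and marks blood stem and progenitor cells and mast cells. Mac-1 is the integrin αMβ2, whose α chain is encoded by Itgam, and it appears on monocytes, macrophages and granulocytes as they mature. In normal marrow, granulocyte and monocyte progenitors make the primary (azurophil) granule proteins at the promyelocyte stage, the secondary and tertiary granule proteins later, and the receptors, lysosomal enzymes and antigen-presentation genes of monocytes along the other branch.

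The values are FPKM, the fragments mapped to a gene scaled by its transcript length and by the library total, so levels can be read between genes. The summed FPKM was 445970 to 544828 in Kit+Sca1- libraries and 555631 to 636313 in MacHigh libraries, and the depth read from the smallest values, relative to MacHigh replicate 1, was 0.889 to 1.88 and 0.927 to 1.59. The table writes 0.001 for no signal. Of its 23361 genes, 35 stood at 0.001 in every Kit+Sca1- library and at 5 FPKM or more in every library of another group, and 2, Lyz2 and Psap, did so in MacHigh. These were treated as missing: among them are Mpo, Elane, Prtn3, S100a8, S100a9 and Ngp. On chromosome 10, between 79704358 and 80320548 (GRCm38.p6, RefSeq), all 41 genes listed stood at 0.001 in all 5 Kit+Sca1- libraries, and none did so in all 24. Of these 41, 29 met the rule above and were set missing. The rest stayed at 0.001. Those at 1 FPKM or more in at least 4 libraries, among them Gamt and Dos, were tested and can enter the counts below as falls. Nothing can be said here about any of these genes in Kit+Sca1- cells.

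The sort labels were checked on the genes of the sorted proteins, which is a check and not a finding. Kit was at 54.1, 38.7, 36.8, 37.6 and 31.7 FPKM in Kit+Sca1- replicates 1 to 5 and at 7.17, 5.23, 6.03, 5.29 and 5.22 FPKM in MacHigh. Itgam was at 199, 396, 137, 182 and 422 FPKM in Kit+Sca1- and at 631, 693, 582, 660 and 600 FPKM in MacHigh. Neither gene's values overlapped between the groups, and both went with the labels. Kit+Sca1- replicates 2 and 5 had the highest Itgam of their group. Ly6a, the gene for Sca-1, was at 0.254 to 1.29 FPKM in Kit+Sca1- and 1.55 to 3.46 FPKM in MacHigh, against a mean of 7.67 FPKM in the Kit+Sca1+ libraries.

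**Figure D1:**
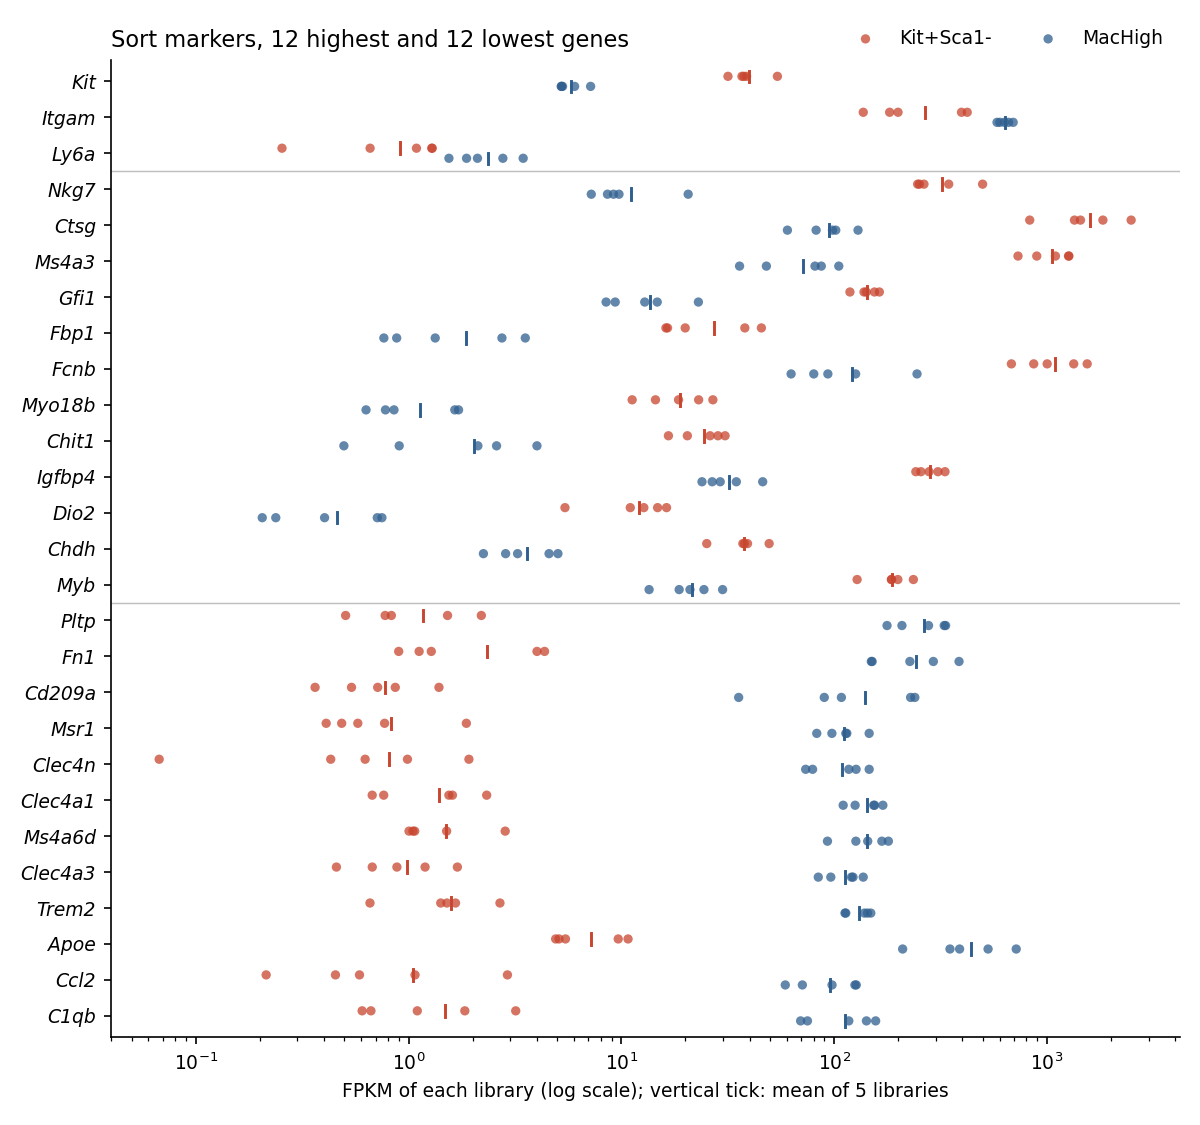
FPKM of each library on a log scale for the 3 sort markers and for the 12 highest and 12 lowest genes in Kit+Sca1- (red) against MacHigh (blue), with a tick at the mean of 5 libraries. The 2 colours do not overlap for any gene shown; Nkg7 lies at 247 to 498 FPKM against 7.22 to 20.6, and Pltp at 0.506 to 2.198 against 177 to 334.

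Kit+Sca1- cells differed from MacHigh cells across most of the genes they express, and the large differences were mostly losses. Of 11562 genes tested, 7246 passed an adjusted p under 0.05 (62.7%, limma on log2(FPKM + 1), Benjamini-Hochberg). Of these, 3765 (32.6%) were higher in Kit+Sca1- and 3481 (30.1%) lower. Among differences of log2 2 or more, 117 genes were higher (1.01%) and 606 lower (5.24%). The values of the 5 and 5 libraries did not overlap for 5182 genes (44.8%). The median difference over all genes tested was 0.03 on the log2 scale. When every library was rescaled to the same FPKM sum, that median rose by 0.29 and the split became 5862 higher and 2272 lower, or 72.1% higher among the genes called against 52% as deposited. A list of genes is therefore described by its median beside the 0.03 of all genes and by its count beside 32.6% and 30.1%, and a list whose direction depends on the scaling is named as such. All fold values below are log2 differences of log2(FPKM + 1), with the standard error of the fit, and understate the change of genes near 1 FPKM.

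**Figure D2:**
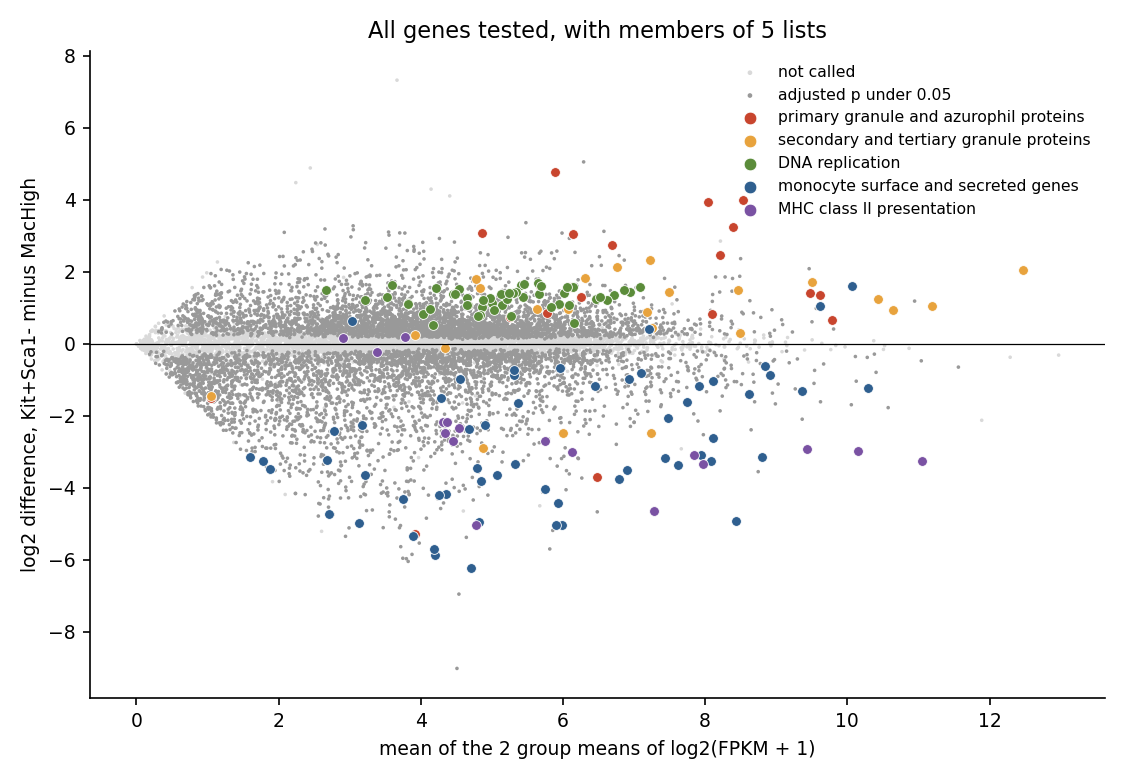
Log2 difference (Kit+Sca1- minus MacHigh) of every gene tested against its mean level, log2(FPKM + 1), with the members of 5 lists in colour. Members of the DNA replication list lie between 0.52 and 1.70, those of the monocyte list reach down to -6.23 and those of the primary granule list up to 4.77.

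The 12 genes highest in Kit+Sca1- cells over MacHigh cells included 4 members of the primary granule list, Nkg7, Ctsg, Ms4a3 and Fcnb. Nkg7, a granule membrane protein known from cytotoxic lymphocytes and also made by myeloid progenitors (chr7:43437138-43438246), was at 264, 345, 498, 251 and 247 FPKM in Kit+Sca1- and at 9.18, 8.60, 20.6, 9.74 and 7.22 FPKM in MacHigh. The difference was 4.77 ± 0.355 (adjusted p = 1.03e-10), and MacHigh replicate 3 was the highest of its group. Ctsg, the neutrophil protease cathepsin G (chr14:56099885-56102574), was at 1435, 1345, 2483, 1829 and 829 FPKM against 129, 82.2, 98.1, 102 and 60.3 FPKM. Its lowest Kit+Sca1- library was replicate 5, still far above every MacHigh library, and the difference was 4.01 ± 0.270 (adjusted p = 2.12e-11). Ms4a3, a membrane protein of granulocyte and monocyte progenitors, stood at 730 to 1266 FPKM against 35.9 to 105 FPKM, a difference of 3.93. Fcnb, the lectin ficolin B, was at 1001, 1543, 865, 680 and 1334 FPKM against 126, 80.1, 245, 93.3 and 62.7 FPKM, a difference of 3.26 ± 0.412 (adjusted p = 4.03e-07).

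Among the same 12 genes were 2 transcription factors of progenitors. Gfi1, a repressor needed for the granulocyte branch, was at 155, 141, 163, 138 and 119 FPKM against 14.7, 9.35, 23, 12.9 and 8.48 FPKM. Myb, a factor that keeps progenitors dividing (chr10:21124930-21160984), was at 186, 186, 235, 199 and 128 FPKM against 24.4, 18.7, 29.9, 21.0 and 13.5 FPKM. For both genes the lowest library of each group was replicate 5, and the groups lay far apart, by 3.37 ± 0.257 for Gfi1 and 3.08 ± 0.183 for Myb. The other 6 were Fbp1, a gluconeogenic phosphatase (3.28), the myosin gene Myo18b (3.19), the chitinase Chit1 (3.17), Igfbp4, which binds insulin-like growth factors (3.13), the deiodinase Dio2, which activates thyroid hormone (3.10), and Chdh, which oxidises choline (3.08). Igfbp4 was the most abundant of these, at 242 to 331 FPKM against 23.9 to 46.1 FPKM. Dio2 stood at 5.43 to 16.3 FPKM and under 1 FPKM in all 5 MacHigh libraries.

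The genes lowest in Kit+Sca1- cells were of lipid transport, scavenging, C-type lectins and complement, and most stood near 1 FPKM there. Pltp, the phospholipid transfer protein (chr2:164839518-164857708), was at 1.52, 0.776, 0.506, 2.198 and 0.830 FPKM in Kit+Sca1- and at 208, 277, 177, 334 and 329 FPKM in MacHigh, a difference of -6.95 ± 0.378 (adjusted p = 8.46e-13). Fn1, fibronectin, was at 4.36, 1.12, 1.28, 4.01 and 0.899 FPKM against 386, 151, 227, 292 and 149 FPKM, a difference of -6.23 ± 0.331. Replicates 1 and 4 were the highest of both groups for Fn1, and no value came near the other group. Trem2, a lipid-sensing receptor of macrophages (chr17:48346401-48352276), was at 1.51, 0.659, 1.66, 2.69 and 1.42 FPKM against 112, 149, 113, 139 and 143 FPKM, a difference of -5.71 ± 0.216 (adjusted p = 1.63e-14). The rest of the 12 were the lectins Cd209a (-6.04), Clec4n (-5.95), Clec4a1 (-5.94) and Clec4a3 (-5.85), the scavenger receptor Msr1 (-5.97), Ms4a6d (-5.85), the lipoprotein Apoe (-5.70), the monocyte chemokine Ccl2 (-5.63) and the complement chain C1qb (-5.53). Apoe alone among them held above 4 FPKM in every Kit+Sca1- library, at 4.91 to 10.7 FPKM.

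The start regions of 4 of these genes are shown, since they stand at opposite ends of the ranking: Nkg7 and Ctsg, the highest in Kit+Sca1-, and Pltp and Trem2, among the 12 lowest. Each runs from 250 bases before to 50 bases after the annotated start, 5′ to 3′ on the gene's strand, from RefSeq on GRCm38.p6. Capitals mark the letters of 4 motifs, searched on both strands: MYB (the letters CAACGG, also searched as CAACTG, as TAACGG and as TAACTG), C/EBP (TTGCNNAA), PU.1 (GAGGAAG) and RUNX (TGCGGT, also searched as TGTGGT). A match is a run of letters, not a site of binding.
Ctsg, chr14:56102525-56102824, minus strand: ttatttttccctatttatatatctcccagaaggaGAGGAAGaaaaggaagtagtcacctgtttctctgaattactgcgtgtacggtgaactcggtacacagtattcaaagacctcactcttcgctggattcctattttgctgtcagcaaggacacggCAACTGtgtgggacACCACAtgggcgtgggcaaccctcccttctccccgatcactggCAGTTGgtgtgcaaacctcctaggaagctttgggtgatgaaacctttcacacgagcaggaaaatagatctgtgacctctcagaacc
Nkg7, chr7:43436888-43437187, plus strand: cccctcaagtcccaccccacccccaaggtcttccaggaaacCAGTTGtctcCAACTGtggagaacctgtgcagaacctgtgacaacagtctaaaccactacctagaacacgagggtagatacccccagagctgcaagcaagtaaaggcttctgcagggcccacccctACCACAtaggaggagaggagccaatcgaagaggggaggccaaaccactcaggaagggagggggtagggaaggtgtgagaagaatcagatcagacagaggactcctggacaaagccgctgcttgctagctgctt
Pltp, chr2:164857659-164857958, minus strand: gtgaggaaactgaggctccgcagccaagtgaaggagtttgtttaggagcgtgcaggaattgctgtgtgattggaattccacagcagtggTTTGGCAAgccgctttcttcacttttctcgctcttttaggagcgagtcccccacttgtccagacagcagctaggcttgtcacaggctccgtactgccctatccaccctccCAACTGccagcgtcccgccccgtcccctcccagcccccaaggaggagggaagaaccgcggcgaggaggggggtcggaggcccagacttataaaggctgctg
Trem2, chr17:48346151-48346450, plus strand: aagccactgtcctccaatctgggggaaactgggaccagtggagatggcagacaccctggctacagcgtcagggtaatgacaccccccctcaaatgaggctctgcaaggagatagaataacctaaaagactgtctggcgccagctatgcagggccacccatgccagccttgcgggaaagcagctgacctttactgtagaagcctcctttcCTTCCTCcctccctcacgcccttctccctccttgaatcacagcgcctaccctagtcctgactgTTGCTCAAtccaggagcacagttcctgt

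The Ctsg and Nkg7 windows each held 2 MYB matches and 1 RUNX match, the Ctsg window also 1 PU.1 match, the Pltp window 1 MYB and 1 C/EBP match, and the Trem2 window 1 C/EBP and 1 PU.1 match. Such matches are common. Of 32851 RefSeq windows of 300 bases, 28.3% held a MYB match, 10.8% a C/EBP match, 13.6% a PU.1 match and 22.4% a RUNX match. Among the 11742 windows of genes tested, from which the next sets were drawn, the shares were 25.4%, 8.64%, 13.9% and 21.7%. Among the 116 windows of genes higher in Kit+Sca1- by log2 2 or more the shares were 27.6%, 15.5%, 9.48% and 19.0%. Among the 626 windows of genes lower by log2 2 or more they were 21.9%, 12.0%, 18.7% and 20.3%.

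Most members of the primary granule list, which also holds the progenitor membrane protein Ms4a3, were higher in Kit+Sca1- cells. Of 19 members tested 16 rose and 3 fell, with a median of 1.42. Beside Nkg7, Ctsg, Ms4a3 and Fcnb, the larger rises were those of Cd63, a granule membrane tetraspanin (72.8 to 93.3 FPKM against 6.20 to 14.7, 3.07 ± 0.245), the protease inhibitor Cst7 (125 to 289 against 19.7 to 26.5 FPKM, 3.05 ± 0.254) and Serpinb1a, an inhibitor of neutrophil proteases (628 to 824 against 69.6 to 179 FPKM, 2.48 ± 0.215). The 3 falls were Ctsc, Dpep2 (-5.28, the largest difference of the list) and Slc7a11. Ctsc, the peptidase that activates the granule proteases, was at 23.1, 15.2, 31.0, 27.9 and 24.5 FPKM in Kit+Sca1- and at 261, 369, 341, 281 and 353 FPKM in MacHigh, a difference of -3.69 ± 0.160 (adjusted p = 6.27e-14). Thus the activating peptidase and its substrate Ctsg moved in opposite directions, with no overlap of either. The median of the list was 1.48 to 1.67 in the 5 Kit+Sca1- libraries. Mpo, Elane, Prtn3 and Prss57 had no estimate.

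Secondary and tertiary granule genes were higher in most cases, and their median varied more among the Kit+Sca1- libraries than that of the primary granule genes. Of 24 tested, 15 rose and 4 fell, with a median of 1.02. Ngp, Chi3l3, S100a8 and S100a9 had no estimate in Kit+Sca1-. Their means in MacHigh were 5129, 1279, 19533 and 15288 FPKM. Cebpe, the factor that drives secondary granule genes, was at 319, 460, 249, 255 and 441 FPKM against 88.8, 42.4, 122, 68.6 and 39.3 FPKM, a difference of 2.32 ± 0.351. Camp, the cathelicidin peptide, was at 11452, 17503, 4279, 9792 and 25379 FPKM against 4082, 1161, 5984, 3594 and 1616 FPKM, a difference of 2.07 ± 0.472 (adjusted p = 0.000600). Kit+Sca1- replicate 3 lay within the MacHigh range for Camp, and replicate 5 was the highest. Ltf, lactoferrin, did not pass the test (0.94 ± 0.545, adjusted p = 0.139), with 701 FPKM in replicate 3 and 6181 FPKM in replicate 5.

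The 4 secondary and tertiary granule genes that fell were Mmp8, Retnlg, Mmp9 and Arg2, of which the first 3 are products of later neutrophils. Mmp8, neutrophil collagenase, was at 7.51, 8.36, 2.86, 9.01 and 46.8 FPKM in Kit+Sca1- and at 77.7, 85.5, 70.8, 80.3 and 82.2 FPKM in MacHigh, a difference of -2.89 ± 0.423. Retnlg, a resistin-like protein, was at 68.7, 56.1, 21.2, 49.0 and 238 FPKM against 353, 395, 296, 399 and 351 FPKM, a difference of -2.49 ± 0.393. Mmp9, gelatinase B, was at 6.65 to 99.3 FPKM against 124 to 255 FPKM. In all 3 genes Kit+Sca1- replicate 3 was the lowest library and replicate 5 the highest, and no value reached the MacHigh group. The list's median was 0.02 in replicate 3 and 1.90 in replicate 5, against -0.58 to 0.50 in the MacHigh libraries. Without replicate 3, 16 members rose and 4 fell with a median of 1.41, and without replicate 5, 13 rose and 4 fell with a median of 0.80.

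**Figure D3:**
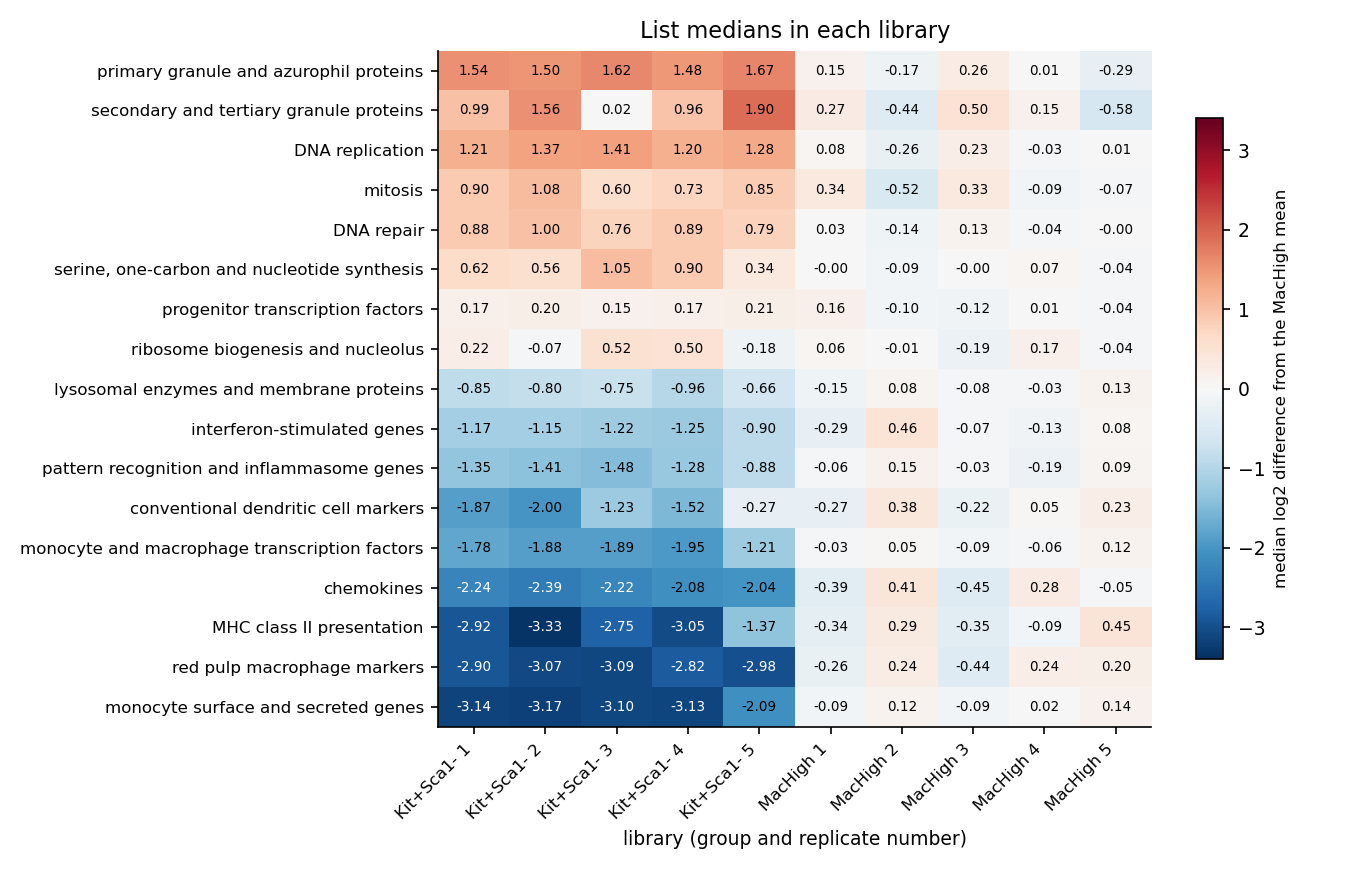
Median over the members of each list of the log2 difference from the MacHigh mean, for each of the 10 libraries (red above, blue below). DNA replication and primary granule medians are near-constant over the Kit+Sca1- libraries, while Kit+Sca1- 5 stands at -1.37 for MHC class II presentation where the other 4 stand at -2.75 to -3.33.

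The list of progenitor transcription factors, which also holds the p53 target Zmat3, went both ways. Of 30 tested 14 rose (46.7%) and 10 fell (33.3%), against 32.6% and 30.1% of all genes, with a median of 0.19. Beside Gfi1 and Myb, the rises were led by Ets1 (35.1 to 73.3 FPKM against 4.77 to 16.2, 2.38 ± 0.313), Erg (26.1 to 43.4 against 3.93 to 12.2 FPKM, 2.09 ± 0.246) and Sox4 (1.86 to 3.65 against 0.239 to 0.655 FPKM, 1.42 ± 0.228). Myc, the growth regulator, was at 93.7, 49.6, 96.9, 87.0 and 50.8 FPKM against 49.4, 45.1, 28.5, 41.0 and 32.1 FPKM. The closest values of Myc were 49.6 and 49.4 FPKM, and the difference was 0.90 ± 0.217 (adjusted p = 0.00103). The falls were led by the p53 target Zmat3 (-2.05 ± 0.195), Tcf4 (-1.74), Meis1 (-1.60 ± 0.136) and Hoxa5 (-1.17). Meis1, a homeobox partner of Hoxa genes in MLL-rearranged leukaemia, was at 2.26, 1.20, 1.82, 1.85 and 2.28 FPKM in Kit+Sca1- and at 7.77, 9.12, 6.15, 6.74 and 8.98 FPKM in MacHigh. The Kit+Sca1- gate thus held less Meis1 RNA than the MacHigh gate. Hoxa9 did not pass the test, at -0.27.

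The stem and progenitor surface and niche genes were divided in the same way, with 14 of 30 tested higher, 12 lower and a median of 0.25. Kit itself is a member and set the gate. Prom1, the CD133 antigen, was at 39.3, 39.1, 21.9, 35.0 and 30.6 FPKM against 5.06, 1.36, 6.04, 4.37 and 1.19 FPKM, a difference of 3.02 ± 0.295. The groups were far apart, and Kit+Sca1- replicate 3 was the lowest. Tspan2, a tetraspanin, rose by 2.41 ± 0.214, Egfl7 by 1.92 ± 0.293 and the adhesion receptor Eltd1 by 1.89 ± 0.164. Cd34 did not pass the test (0.24 ± 0.268), at 6.65 to 28.4 FPKM against 9.67 to 16.7 FPKM. Cdh1, E-cadherin, fell by 2.51 ± 0.242, and Cd48, a ligand that is low on normal stem cells, fell by 1.73 ± 0.174, from 151 to 229 FPKM in MacHigh to 33.1 to 73.2 FPKM.

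Monocyte and macrophage transcription factors were lower in Kit+Sca1- cells almost throughout: 37 of 45 fell and 2 rose, with a median of -1.77. Maf was at 0.472, 0.153, 0.207, 0.688 and 0.307 FPKM in Kit+Sca1- and at 14.3, 60.0, 25.7, 28.8 and 39.5 FPKM in MacHigh, a difference of -4.53 ± 0.302. The groups lay far apart, and no Kit+Sca1- library reached 1 FPKM. Differences were -3.83 ± 0.196 for Irf4, -3.78 ± 0.205 for Klf4, a factor of monocyte maturation, and -3.73 ± 0.248 for Irf5. Irf5 was at 16, 9.68, 20.2, 20.3 and 50.5 FPKM in Kit+Sca1-, highest in replicate 5, and at 241 to 313 FPKM in MacHigh. Cebpa, the C/EBP factor of the whole myeloid lineage, did not pass the test at -0.04 ± 0.133 (55.7 to 105 FPKM against 70.1 to 81.7 FPKM). The 2 rises were Tfec (44.5 to 93.7 FPKM against 15 to 26.2, 1.62 ± 0.233) and Cebpd (0.80 ± 0.263, overlapping values).

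Of 59 monocyte surface and secreted genes tested, 54 fell and 2 rose, with a median of -3.15. Ccr2, the receptor that draws monocytes out of marrow, was at 11.4, 10.6, 11.4, 11.6 and 17.4 FPKM in Kit+Sca1- and at 179, 233, 202, 224 and 250 FPKM in MacHigh, a difference of -4.03 ± 0.129 (adjusted p = 8.55e-16). The Kit+Sca1- values were close to each other except for replicate 5. Cx3cr1, the fractalkine receptor, fell by 5.34 ± 0.232, from 73.4 to 135 FPKM in MacHigh to 0.999 to 1.67 FPKM. The 2 monocyte genes that rose were Ly6c2 (802 to 1408 FPKM against 435 to 730, 1.06 ± 0.254) and Plac8 (1451 to 2865 FPKM against 433 to 731, 1.60 ± 0.183), both known also from progenitors. The median over this list was -2.09 in Kit+Sca1- replicate 5 and -3.10 to -3.17 in the other 4 libraries. Without replicate 5, 55 members fell and 2 rose.

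Receptors of the innate response followed. Scavenger and lipid handling genes fell in 28 of 34 cases and rose in 2 (median -1.87): Lpl, lipoprotein lipase, stood at 8.64 to 16 FPKM against 150 to 243 FPKM (-4.12 ± 0.205), while the oxidised-lipoprotein receptor Olr1 (2.35 ± 0.303) and the acyl-CoA synthetase Acsl1 (1.38 ± 0.184) rose. C-type lectin receptors fell in 13 of 22 cases and rose in 5 (median -1.36). Beside those among the lowest 12 genes, Clec10a fell by 4.57 ± 0.236 and Clec4d by 4.00 ± 0.216, whereas Clec12a, an inhibitory receptor of myeloid cells, rose by 1.44. Of 44 pattern recognition and inflammasome genes 35 fell and 1 rose (median -1.23). Nlrp3, the inflammasome sensor, stood at 1.12 to 4.25 FPKM against 33.2 to 43.9 FPKM (-3.81 ± 0.162), and Tlr13, a sensor of bacterial RNA, fell by 3.87 ± 0.197. The single rise (2 without Kit+Sca1- replicate 3, MacHigh replicate 3 or MacHigh replicate 5) was Irak3, a brake on Toll-like receptor signals, at 44.2 to 60.0 FPKM against 16.9 to 27.1 FPKM (1.23 ± 0.185).

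Chemokines fell in 13 of 18 cases with no rise, and their median was -2.22. Ccl6 was at 9.26, 4.55, 7.83, 11.6 and 12.0 FPKM in Kit+Sca1- and at 322, 323, 280, 522 and 336 FPKM in MacHigh, a difference of -5.18 ± 0.293. Of 44 chemoattractant and lipid mediator receptors 32 fell and 6 rose (median -1.06). The 6 were Ltb4r1, S1pr4, Cxcr4, Gpr84, C5ar2 and P2rx1, each by less than 1. Cxcr4, the receptor that holds progenitors in marrow, was at 127 to 245 FPKM against 60.7 to 115 FPKM (0.84 ± 0.211).

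Cytokine and growth factor receptors fell in 25 of 39 cases and rose in 6 (median -0.94). Csf1r, the receptor for the macrophage growth factor M-CSF, was at 9.93, 8.34, 13.6, 10.6 and 8.98 FPKM in Kit+Sca1- and at 267, 468, 314, 367 and 422 FPKM in MacHigh, a difference of -5.02 ± 0.226. Il13ra1, a chain of the interleukin 13 receptor, fell by 4.28 ± 0.223. The rises were Kit (which set the gate, so its rise is not a finding), Igf1r (1.45 ± 0.210), Il18r1, Csf3r, Cd27 and Il1rap. Csf3r, the G-CSF receptor, was at 65.7 to 107 FPKM against 26.7 to 70.0 FPKM, with overlap (0.86 ± 0.306, adjusted p = 0.0178, limma), and did not pass without MacHigh replicate 1 (0.68, adjusted p = 0.0631). The count of 6 rises became 3 without Kit+Sca1- replicate 1, MacHigh replicate 1 or MacHigh replicate 5. Of 29 integrins and adhesion genes 20 fell and 3 rose (median -0.92), among them Icam1 (-2.49 ± 0.167) and Itgb1 (-1.08 ± 0.0636).

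MHC class II presentation genes fell in 14 of 17 cases and none rose (median -2.71); 1 rose without Kit+Sca1- replicate 3 or MacHigh replicate 5, and 2 at the same FPKM sum. The 3 that did not pass were Rfx5, Rfxank and Rfxap, subunits of the complex that binds class II promoters. Cd74, the invariant chain, was at 542, 323, 754, 533 and 2136 FPKM in Kit+Sca1- and at 5016, 8081, 4695, 6244 and 10128 FPKM in MacHigh, a difference of -3.26 ± 0.391. H2-Aa, a class II α chain, was at 299, 179, 466, 358 and 1236 FPKM against 2431, 3782, 2283, 3227 and 4857 FPKM (-2.97 ± 0.398). Ciita, the class II transactivator, was at 6.45, 4.54, 7.72, 5.73 and 18.5 FPKM against 39.6 to 87.9 FPKM (-2.69 ± 0.320). Replicate 5 was the highest Kit+Sca1- library for all 3 genes and still lay below every MacHigh library. The list median was -1.37 in replicate 5 and -2.75 to -3.33 in the others; without replicate 5 the same number, 14, fell, with a median of -2.99.

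Conventional dendritic cell markers were also lower in most cases, and 9 of the 16 also stand in another list. Of 16, 10 were lower in Kit+Sca1- and 1 higher, with a median of -1.34, and their summed level was 437 to 755 FPKM against 556 to 716 FPKM in MacHigh. The highest sum in Kit+Sca1- was that of replicate 5. Most of the sum was Cd24a, which is not confined to dendritic cells, at 339 to 539 FPKM against 232 FPKM on average in MacHigh. In that library Zbtb46, the factor of the conventional dendritic lineage, was at 9.73 FPKM and at 1.79 to 2.82 FPKM in the other 4, against 19.4 to 37.8 FPKM in MacHigh. Xcr1 was at 9.74 FPKM in replicate 5 and 1.70 to 5.05 FPKM in the others, Clec9a at 20.7 and 2.38 to 6.61 FPKM, and Batf3 at 21.5 and 2.91 to 6.20 FPKM. The part of these cells in the class II result was not tested. In bulk RNA fewer cells of a type and less RNA per cell cannot be told apart.

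MHC class I and immunoproteasome genes fell in 14 of 23 cases and rose in 1 (median -0.50), which became 10 and 4 (median -0.17) at the same FPKM sum. The larger falls were H2-M3 (-1.74 ± 0.167) and Nlrc5, the class I transactivator (-1.38 ± 0.133). Interferon-stimulated genes fell in 32 of 43 cases and rose in 3 (median -1.16). Zbp1, a sensor of nucleic acid, stood at 0.621 to 2.12 FPKM against 12.7 to 23 FPKM (-3.07 ± 0.231), and Parp14 at 2.60 to 3.04 FPKM against 16.2 to 31.1 FPKM (-2.43 ± 0.191). Against this direction Ifit2 was at 17.4, 17.6, 12.9, 14.3 and 16.4 FPKM in Kit+Sca1- and at 3.88, 4.76, 5.03, 4.63 and 3.41 FPKM in MacHigh (1.65 ± 0.112, adjusted p = 2.44e-11). Its neighbours Ifit1 and Ifit3 fell by 0.90 and 1.16, so genes of 1 family and 1 interferon response moved apart. The size of these falls depended on the processing. Over all settings run, the difference was -2.15 to -0.271 for Ifit1 and -2.65 to -0.370 for Ifit3. For Ifit2 it was 1.15 to 1.94. The other 2 rises were Gbp3 and Cmpk2.

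Genes of DNA replication rose without exception. All 50 tested were higher in Kit+Sca1-, against 32.6% of all genes, with a median of 1.28 and a range of 0.52 to 1.70. Uhrf1, which recruits maintenance DNA methylation to replicating DNA, was at 78.6, 107, 90.5, 88.7 and 85.3 FPKM against 28.5, 24.3, 33.9, 29.1 and 27.7 FPKM (1.62 ± 0.103). Chaf1a, a chromatin assembly factor, was at 54.3 to 72.0 FPKM against 17.9 to 27.4 FPKM (1.42 ± 0.1003). Of 50 mitosis genes 48 rose and none fell, by less (median 0.82, range 0.32 to 1.13), among them the checkpoint gene Mad2l1 (1.04 ± 0.131) and the kinetochore gene Nuf2 (1.05 ± 0.133). DNA repair genes rose in 39 of 47 cases and fell in 3 (median 0.85). Chek1, the replication checkpoint kinase, was at 13 to 15.5 FPKM against 2.98 to 5.27 FPKM (1.66 ± 0.113) and Rad51ap1 rose by 1.41 ± 0.108. The 3 falls were Xpa, Fancl and Ercc1, which act in excision and crosslink repair, by 0.64, 0.41 and 0.31. Rescaled to the same FPKM sum none of the 3 passed, and the call of Ercc1 was also lost without Kit+Sca1- replicate 1, 2 or 4 or without any of MacHigh replicates 2 to 5.

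Cell cycle regulators were split, 13 of 34 higher (38.2%) and 11 lower (32.4%), with a median of 0.13. These shares were near the 32.6% and 30.1% of all genes. The phosphatase Cdc25a rose by 1.82 ± 0.157, cyclin E2 (Ccne2) by 1.45 ± 0.152 and E2f1 by 1.05 ± 0.0973. Cdkn1a, the inhibitor p21, was at 12.8, 13.3, 13.4, 11.4 and 15 FPKM in Kit+Sca1- and at 138, 189, 106, 108 and 138 FPKM in MacHigh, a difference of -3.24 ± 0.153 (adjusted p = 1.43e-13). Ccnd1, cyclin D1, fell by 2.64 ± 0.225 and Cdkn2a, which encodes the p16 and p19 inhibitors, by 1.85 ± 0.263. Thus the S-phase genes were higher while both a D cyclin and 2 inhibitors were lower.

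RAS-ERK feedback and target genes fell in 30 of 41 cases and rose in 5 (median -0.97), in cells that all carry NRASG12V. Dusp6, the phosphatase of ERK, was at 31.0, 43.2, 28.6, 29.9 and 42.8 FPKM against 147, 256, 137, 177 and 162 FPKM (-2.28 ± 0.188). Dusp5 (-2.38 ± 0.169) and Dusp3 (-3.70 ± 0.143) fell as well. Spry2, another feedback inhibitor, went the other way, at 9.93 to 14.2 FPKM against 2.33 to 3.99 FPKM (1.74 ± 0.152), as did Rasgrp2 (1.61 ± 0.209), Mapk3 and Braf. The table holds Nras at 0.001 in every library, so its level is not given. Of 17 BCL2 family genes 12 fell and 2 rose (median -0.76). Both survival and death genes were among the falls: Mcl1, at 74.0 to 127 FPKM against 275 to 337 FPKM (-1.69 ± 0.133), and Bbc3, which encodes PUMA (-2.17 ± 0.185).

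**Figure D4:**
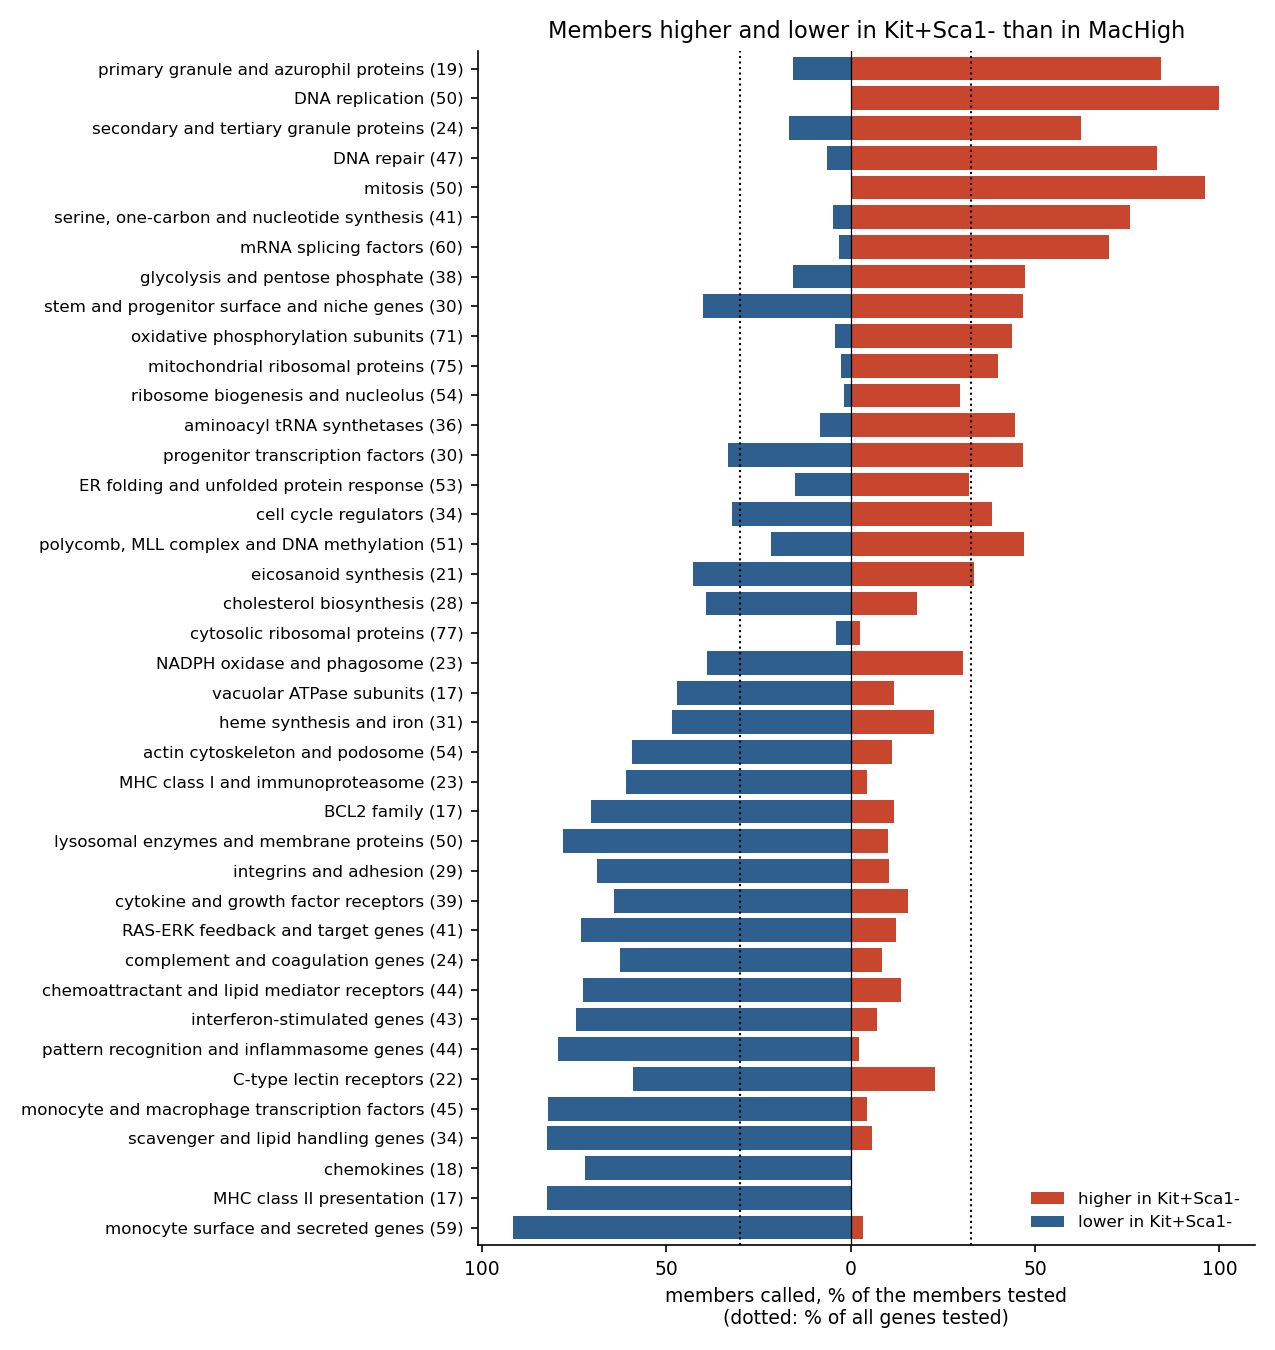
Share of the members tested in each of 40 lists that were called higher (red, right) or lower (blue, left) in Kit+Sca1- than in MacHigh, with the number tested in brackets. The dotted lines mark the shares of all genes, 32.6% and 30.1%; DNA replication reaches 100% higher and monocyte surface genes 91.5% lower.

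Of the metabolic lists, that of serine, one-carbon and nucleotide synthesis rose most: 31 of 41 higher, 2 lower, median 0.70. Impdh1, the first enzyme of guanine nucleotide synthesis, was at 50.8, 61.3, 98.0, 51.7 and 42.2 FPKM against 7.94, 6.70, 7.05, 10.9 and 5.08 FPKM (2.83 ± 0.203). Phgdh, the entry enzyme of serine synthesis, rose by 1.82 ± 0.262, Shmt1 by 1.63 ± 0.159 and thymidine kinase Tk1 by 1.42 ± 0.131. Of 38 glycolysis and pentose phosphate genes 18 rose and 6 fell (median 0.31). Enzymes of the pentose branch were among the rises, with Rpia at 1.78 ± 0.142 and Tkt at 1.20 ± 0.0998, and so was Ldhb (2.37 ± 0.192). The largest falls included glucose carriers: Slc2a6 stood at 1.37 to 5.19 FPKM against 55.4 to 82.4 FPKM (-4.01 ± 0.192) and Slc2a1 at 9.04 to 12.5 FPKM against 32.5 to 47.7 FPKM (-1.76 ± 0.0924).

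Heme and iron genes went 7 higher and 15 lower of 31, and 13 and 14 at the same FPKM sum. Alas1, the first enzyme of heme synthesis, was at 202 to 324 FPKM against 37.3 to 66.3 FPKM (2.33 ± 0.238) and Tfrc, the transferrin receptor, at 50.1 to 95.0 FPKM against 15.5 to 27.9 FPKM (1.72 ± 0.285). Hmox1, which breaks heme down, was at 15, 17.2, 10.6, 19.98 and 23.9 FPKM in Kit+Sca1- and at 473, 436, 264, 539 and 624 FPKM in MacHigh (-4.66 ± 0.232). Slc11a1, the phagosomal iron exporter, fell by 4.84 ± 0.215 and ferritin heavy chain, Fth1, by 2.09 ± 0.158.

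Housekeeping lists moved little, and their counts depended on the scaling. Of 60 splicing factors 42 rose and 2 fell (median 0.37). Of 71 oxidative phosphorylation subunits 31 rose and 3 fell (median 0.23), of 75 mitochondrial ribosomal proteins 30 and 2 (0.22), of 54 ribosome biogenesis genes 16 and 1 (0.20), of 36 tRNA synthetases 16 and 3 (0.19) and of 53 genes of protein folding in the endoplasmic reticulum 17 and 8 (0.13). At the same FPKM sum the rises became 59, 65, 35, 26 and 31 for the last 5, in that order. As deposited, the rises in ribosome biogenesis (29.6%) and protein folding (32.1%) were near the 32.6% of all genes. Their falls (1.85% and 15.1%) were below the 30.1% of all genes. Without Kit+Sca1- replicate 3 the falls became 7 in ribosome biogenesis, 5 in oxidative phosphorylation, 4 in mitochondrial and 9 in cytosolic ribosomal proteins, those in splicing became 1 without Kit+Sca1- replicate 2 or 3 or MacHigh replicate 1, 3, 4 or 5, and those in protein folding became 5 without Kit+Sca1- replicate 1 or 4 or MacHigh replicate 2 or 3. The medians of ribosome biogenesis in the 5 Kit+Sca1- libraries were 0.22, -0.07, 0.52, 0.50 and -0.18, lowest in replicates 2 and 5. Of 77 cytosolic ribosomal proteins, many of which have near-identical copies, 2 rose and 3 fell. The median of -0.15 there turned to 0.17 at the same FPKM sum, and those of the NADPH oxidase, vacuolar ATPase, cholesterol and heme lists also changed sign, so no direction is given for these. As deposited, 5 of 28 cholesterol synthesis genes rose and 11 fell, and 2 of 17 vacuolar ATPase subunits rose and 8 fell.

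Within those lists and the lists for phagocytes, single genes differed clearly. Of 23 NADPH oxidase and phagosome genes 7 rose (30.4%) and 9 fell (39.1%), against 32.6% and 30.1% of all genes. Hvcn1, the proton channel that sustains the oxidase, was at 134 to 237 FPKM against 28.2 to 63.3 FPKM (2.17 ± 0.219). The pore-forming Mpeg1 fell by 2.60 ± 0.190. Of 21 eicosanoid genes 7 rose (33.3%) and 9 fell (42.9%), against the same shares of all genes. Lta4h, which makes leukotriene B4, was at 768, 914, 789, 779 and 866 FPKM in Kit+Sca1- and at 172, 127, 231, 167 and 117 FPKM in MacHigh (2.37 ± 0.211), and Ptgs1, cyclooxygenase 1, rose by 2.02 ± 0.209. Hpgd, which breaks prostaglandins down, fell by 4.13 ± 0.325, and Pla2g7 fell by 4.31 ± 0.367. Lysosomal genes fell in 39 of 50 cases and rose in 5 (median -0.80), with Lgmn at -5.02, Ctss at -4.65, Ctsa at -2.18 and Asah1 at -1.85. Complement and coagulation genes fell in 15 of 24 cases and rose in 2 (median -0.98): properdin, Cfp, fell by 2.52 ± 0.137 and the C3a receptor, C3ar1, by 3.82 ± 0.219, while C3 and F5 rose by 1.86 and 1.28.

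Actin cytoskeleton and podosome genes fell in 32 of 54 cases and rose in 6 (median -0.43), which became 19 and 18 at the same FPKM sum. Plxnb2 (-4.09 ± 0.205) and tropomyosin 4, Tpm4 (-3.39 ± 0.206), led the falls. Of 51 polycomb, MLL complex and DNA methylation genes 24 rose and 11 fell (median 0.13). The maintenance methyltransferase Dnmt1 rose by 1.29 ± 0.0940 and the polycomb accessory subunit Mtf2 by 1.35 ± 0.0960, and Pcgf5 by 1.55. The 11 falls became 4 at the same FPKM sum.

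Markers of other cells were measured beside these results. Of 16 red pulp macrophage markers, 14 of which also stand in another list, 14 fell and 1 rose (median -2.97). Their summed level was 229 to 349 FPKM in Kit+Sca1- and 1428 to 2201 FPKM in MacHigh. The defining factor Spic was at 0.149 to 0.539 FPKM against 4.62 to 13.6 FPKM (-2.90 ± 0.199), and Vcam1, another marker, at 1.27 to 3.63 FPKM against 2.96 to 11.6 FPKM. Their part in the monocyte, scavenger, complement and heme results was not tested. Of 14 NK cell markers 7 rose and 3 fell, and the summed level was 281 to 531 FPKM in Kit+Sca1- and 42.6 to 72.8 FPKM in MacHigh, most of it Nkg7. Among the 7 that rose, Ncr1, Gzma and Prf1 stood at much lower levels than Nkg7. The other members did not follow: 4 were not called, and the lowest difference in the list was -2.26. Ncr1 was at 0.647 to 2.52 FPKM in Kit+Sca1- and 0.0927 to 0.217 FPKM in MacHigh (1.22 ± 0.317), Gzma at 1.65 to 5.85 FPKM and 0.177 to 1.54 FPKM (1.52 ± 0.479), and Prf1 at 0.628 to 2.17 FPKM and 0.0315 to 0.252 FPKM (0.98 ± 0.301). None of these 3 passed with a pseudocount of 5. In the Kit-Sca1- libraries the means of Gzma and Nkg7 were 54.4 and 27 FPKM, and in Kit+Sca1- the mean of Nkg7 was 321 FPKM. The part of NK cells in the Nkg7 result was not tested.

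Lymphoid, erythroid and other markers were measured in the same way. B cell markers summed to 20.2 to 31.8 FPKM in Kit+Sca1- and 45.1 to 91.3 FPKM in MacHigh, and 4 of 5 tested fell. T cell markers summed to 8.29 to 30.7 FPKM and 10.6 to 11.7 FPKM, with Cd3e under 0.05 FPKM in all 10. Erythroid markers summed to 57.6 to 136 FPKM and 25.3 to 226 FPKM, and 1 of 21, Tfrc, passed. Without Kit+Sca1- replicate 4 erythroid markers had 2 falls, and without MacHigh replicate 4 a second rise. Of 10 plasmacytoid dendritic markers tested 6 fell and none rose (median -0.91), and 6 of the 12 listed also stand in another list. Their summed level was 72.3 to 219 FPKM in Kit+Sca1- and 269 to 420 FPKM in MacHigh, the largest part of it Irf8, which monocytes also express, and their part in the other results was not tested. The defining marker Siglech was at 0.170 FPKM or less in Kit+Sca1- and at 0.531 to 1.69 FPKM in MacHigh. Of 10 megakaryocyte and platelet markers 2 rose and 2 fell, of 4 plasma cell markers 2 fell, and all 3 endothelial and stromal markers tested fell. Of 9 eosinophil markers 2 rose and 3 fell, and of 8 mast cell and basophil markers 2 rose and 3 fell; Cpa3, a mast cell protease, did not pass (0.06 ± 0.272), at 0.627 to 3.49 FPKM against 0.800 to 2.84 FPKM.

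Kit+Sca1- cells were then set against the other gates low in Mac-1, to show where they differ. Against Kit+Sca1+ cells 6369 of 11564 genes passed (55.1%), 3298 higher (28.5%) and 3071 lower (26.6%). Against Kit-Sca1- cells 5787 passed (50%), 2779 higher (24%) and 3008 lower (26%). The MacHigh comparison shares the Kit+Sca1- libraries with both, so the 3 are given side by side only. Most members tested of the primary granule list were higher in Kit+Sca1- in all. Against Kit+Sca1+ 15 of 19 rose (median 1.69), and against Kit-Sca1- 15 of 19 (1.52). The 4 members without an estimate in Kit+Sca1- are left out of these counts. Their means in Kit+Sca1+ were 2147 FPKM (Mpo), 1935 FPKM (Elane), 1014 FPKM (Prtn3) and 38.4 FPKM (Prss57). In Kit-Sca1- they were 311, 316, 548 and 6.13 FPKM, and in MacHigh 111, 157, 141 and 5.55 FPKM. Fcnb had a mean of 1085 FPKM in Kit+Sca1-, 298 FPKM in Kit+Sca1+, 46.3 FPKM in Kit-Sca1- and 121 FPKM in MacHigh. Gfi1 had means of 143, 46.1, 15 and 13.7 FPKM in that order, and Cebpe of 345, 81.4, 46.8 and 72.2 FPKM.

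Other lists separated the gates differently. DNA replication genes were higher in 46 of 50 cases against Kit+Sca1+ (median 0.64) and in 20, with 2 lower, against Kit-Sca1- (0.26). The library medians, measured from the MacHigh mean, were 1.20 to 1.41 in Kit+Sca1-, 0.51 to 0.67 in Kit+Sca1+ and 0.69 to 1.37 in Kit-Sca1-. Ribosome biogenesis genes were lower in 44 of 54 cases against Kit-Sca1-, with none higher (median -0.57), and lower in 8 and higher in 2 against Kit+Sca1+. MHC class II genes were lower in 15 of 17 cases against Kit+Sca1+ (median -3.44) but in 3, with 2 higher, against Kit-Sca1- (0.26). Secondary and tertiary granule genes were higher in 23 of 24 cases tested against Kit+Sca1+ (median 2.26) and in 13, with 6 lower, against Kit-Sca1- (1.02). Ngp, Chi3l3, S100a8 and S100a9, without an estimate in Kit+Sca1-, are left out. Mmp8 had a mean of 268 FPKM in Kit-Sca1-, 14.9 FPKM in Kit+Sca1- and 3.26 FPKM in Kit+Sca1+, and Retnlg of 1360, 86.6 and 16 FPKM.

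**Figure D5:**
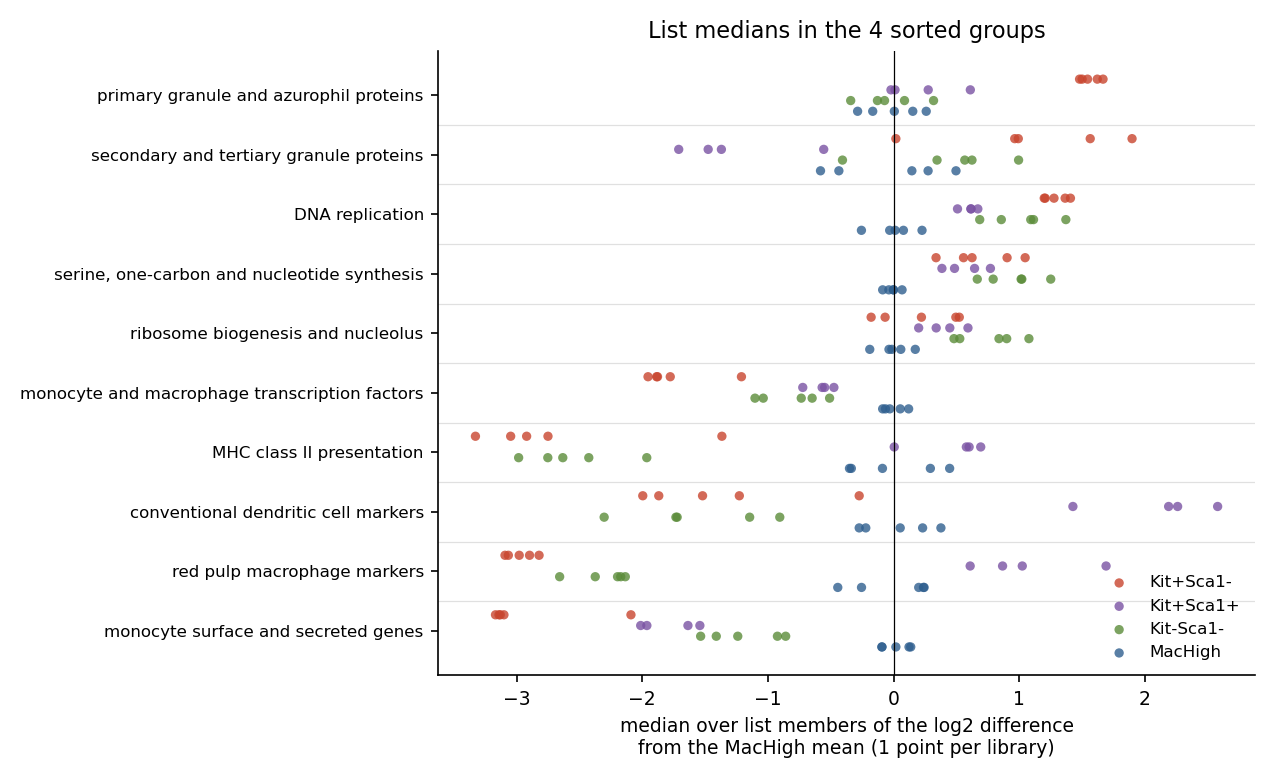
List medians of the log2 difference from the MacHigh mean, 1 point per library, for the 4 sorted groups. Kit+Sca1- (red) is highest for the 19 primary granule members tested, at 1.48 to 1.67, and lowest for monocyte surface genes, at -3.17 to -2.09. Mpo, Elane, Prtn3 and Prss57, without an estimate in Kit+Sca1-, are left out of the primary granule medians of every group. Dendritic and red pulp markers are highest in Kit+Sca1+.

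Of the progenitor genes, Myc had a mean of 75.6 FPKM in Kit+Sca1-, 75.5 FPKM in Kit-Sca1- and 88.5 FPKM in Kit+Sca1+, and the difference passed against neither (limma, adjusted p = 0.953 and 0.409). Sox4 was lower in Kit+Sca1- than in Kit+Sca1+ by 2.11 (means of 2.79 and 16.7 FPKM), and Egfl7 by 1.92 (10.4 and 45.8 FPKM). Meis1 was lower in Kit+Sca1- than in each of the other sorted groups (adjusted p below 0.05 in each limma comparison), with means of 1.88 FPKM against 6.35 FPKM in Kit+Sca1+, 5.78 FPKM in Kit-Sca1- and 7.75 FPKM in MacHigh. Cdkn1a had means of 13.2 FPKM in Kit+Sca1-, 29.0 FPKM in Kit+Sca1+, 133 FPKM in Kit-Sca1- and 136 FPKM in MacHigh.

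The genes that varied most within a group were short or multi-copy transcripts, whose reads may fall on near-identical copies, and they are given as levels only. In Kit+Sca1- these included Stfa2l1 (2.02 to 143 FPKM), Rpl19 (1.03 to 59.3 FPKM), Ppia (1.06 to 92.1 FPKM) and Rpl23a (0.001 to 28.1 FPKM). In MacHigh they included Rpl11 (0.0998 to 98.0 FPKM), Rps23 (3.32 to 138 FPKM), Atp5l (0.001 to 23.3 FPKM) and Usmg5 (0.001 to 21.7 FPKM). Replicates 2 and 4 were the high libraries for Rpl19 and Rpl23a in Kit+Sca1-.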

How the data were processed

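Total RNA of spleen leukaemia cells sorted on Mac-1, Kit and Sca-1 was sequenced on an Illumina instrument, per the labels. The authors deposited 1 table of FPKM values for 24 libraries. The submitters' processing notes name TopHat2 2.0.4, Cuffdiff (version not given in the sources used here) and mm10. The table holds no read counts, so the counting error of a low FPKM value is not known. How the normalization was set is not given in the sources used here.

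From the table, log2(FPKM + 1) was fitted with limma 3.58.1 (R 4.3.3, trended prior) over all 24 libraries in 5 groups, for genes at 1 FPKM or more in at least 4 libraries. Rows at 0.001 in a whole group and at 5 FPKM or more in every library of another were set missing in that group. P-values were Benjamini-Hochberg adjusted over all genes tested, with a threshold of 0.05. The fit was tested on simulated data.

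The genes described are Kit, Itgam and Ly6a; the 12 highest and 12 lowest differences among genes that passed, did not overlap and reached a mean of 5 FPKM, without microRNA, snoRNA and predicted rows; the called members of each list with the largest moderated statistics, with other members named where they show which moved; and the 5 most variable genes of each group. Some genes that these rules name are not reported here. The comparison, its members and the lists were chosen with earlier results of these data known. Of the rows, 23201 (99.3%) matched RefSeq names on GRCm38.p6. Alternatives changed the pseudocount, filter, scaling, libraries fitted, weights and replicate block, and left out each replicate in turn. Figures used Python 3.11.15 and matplotlib 3.10.9.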

Additional observations from a re-analysis of the deposited data

Results flagged for a closer look

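In each group of 5 libraries, the values of the 183 genes named were searched for a library far from the other 4 on the log2(FPKM + 1) scale, where the gap to the nearest value exceeded 0.71 of the group's range. Chance gives about 1 in 20 such groups, and 23 of 366 were found. Of these, 6 were in Kit+Sca1- replicate 5 and 5 in MacHigh replicate 3.

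Kit+Sca1- replicate 5 was high for Ccr2 (17.4 FPKM, the others at most 11.6), Zbtb46 (9.73, at most 2.82), Hpgd (5.71, at most 1.46), Cfp (148, at most 100.4), Arg2 (0.992, at most 0.216) and Cd24a (539, at most 373 FPKM). All but Cd24a were among the genes that fell. Kit+Sca1- replicate 2 was high for Rad51ap1 (45.6 FPKM) and Olr1 (61.4 FPKM) and low for Hoxa9 (1.17 FPKM). Replicate 4 was high for C3ar1 (0.226 FPKM) and Rpl11 (9.03 FPKM), and replicate 1 was low for Chek1 (13 FPKM, the others 15.1 to 15.5).

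MacHigh replicate 3 was high for Nkg7 (20.6 FPKM, the others 7.22 to 9.74), Tspan2 (7.504 FPKM), Rasgrp2 (65.5 FPKM) and Tkt (313 FPKM) and low for Lpl (150 FPKM, the others 232 to 243). MacHigh replicate 2 was high for Mmp9 (255 FPKM), Zmat3 (14.48 FPKM) and Rpl11 (98.0 FPKM, the others at most 1.05). MacHigh replicate 5 was high for Il13ra1 (68.5 FPKM) and low for Gpr84 (11.8 FPKM) and Igf1r (4.39 FPKM).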

How the results depend on the processing

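Of 148 genes that passed and were given a difference, 141 kept their call under every alternative run, and none of the 148 changed direction; calls were lost for Csf3r, Xpa, Fancl, Ercc1, Ncr1, Gzma and Prf1. Of 2496 list counts 144 moved by more than 1.5 times. At the same FPKM sum 5862 genes were higher and 2272 lower than MacHigh, 204 of them higher by log2 2 or more, and 4280 were higher and 1673 lower than Kit-Sca1-; the scaling itself moves the median. Differences of log2 2 or more numbered 259 higher and 947 lower with a pseudocount of 0.1, and 49 and 282 with one of 5, since the pseudocount shrinks low genes. Leaving out 1 replicate gave 6859 to 7291 genes changed against MacHigh (3540 to 3737 higher, 3279 to 3554 lower; 102 to 138 and 559 to 658 at log2 2), 5567 to 6421 against Kit+Sca1+ and 5217 to 6032 against Kit-Sca1-. Hoxa9 turned to 0.0224 under quantile normalization; Cebpa turned to 0.29 at the same FPKM sum and lay between -0.17 and 0.0544 without 1 replicate; Cpa3 turned to -0.07 and -0.08 without Kit+Sca1- replicates 1 and 4 and to -0.11 without MacHigh replicate 3. None of these 3 genes passed the test. The cause was not tested.

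The replicate numbers were checked for pairing. The mean correlation of same-numbered deviations was 0.0998 (-0.0493 to 0.272), against -0.0253 for pairs of unlike number. Of 5 same-numbered pairs 3 exceeded 0.1, and 2 of 5 libraries of each group correlated best with their own number. These values do not settle whether the numbers pair the samples, and the main fit left pairing out. Same-numbered Kit+Sca1- and MacHigh libraries do share a prefix in the table's column headings, whose meaning the labels do not give, so that both blocks below make the same 5 pairs in these groups. With the title number as a replicate block 7089 genes changed against MacHigh (3626 higher, 3463 lower), against 6794 in those 10 libraries without it. With the prefix as the block over all 24 libraries 8220 changed, against 7246 without it. Against Kit+Sca1+ the title numbers join libraries of unlike prefix, and that block gave 2181 higher, while the prefix block gave 3804. FPKM give no read counts, so calls near 1 FPKM are the least certain.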
